A study of Mus musculus with 18 samples.

Results

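The 34 genes described here act in mitosis and cytokinesis, and they were taken by symbol, with no measured value in the rule. The genes and their groups were nonetheless chosen with earlier results of these data known. All 34 were listed among the 17379 genes of the sgNAT10 mRNA table, the 10974 genes of the Ribo-seq table and the 28738 genes of the sgMyc mRNA table. They comprised 12 mitotic kinases, cyclins and genes of the anaphase-promoting complex (APC/C) pathway, 9 kinetochore and chromosomal passenger genes, 7 spindle and chromosome genes, and 6 cytokinesis genes.

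The libraries came from TC1 cells, a cultured mouse tumour line given as fibrosarcoma in the labels, in 3 genotypes: sgNAT10, edited at the RNA acetyltransferase gene Nat10; sgMyc, edited at the transcription factor gene Myc; and wild type (WT). The sgNAT10 and WT cells each gave 2 mRNA libraries, 2 Ribo-seq libraries of ribosome-protected fragments (footprints), and 1 precipitate and 1 input library of acRIP-seq, in which acetylated RNA is precipitated. The sgMyc cells and a second set of WT libraries gave 3 mRNA libraries each, and every edit was compared with the WT libraries of its own set. The labels do not say whether an edited line was a clone or a pool, name no control guide, and do not say that replicates were separate cultures, so p-values measure only the spread between these libraries, which may be technical.

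Entry into mitosis is driven by the kinase CDK1 bound to cyclin B, with the Polo and Aurora kinases. The spindle checkpoint holds back the APC/C, a ubiquitin ligase, until every kinetochore is attached to microtubules. Destruction of cyclin B then lets the cell divide, and the central spindle directs the contractile ring of cytokinesis. Most of these genes are transcribed late in the cell cycle, through a cell cycle genes homology region (CHR) bound by the DREAM, MuvB-B-MYB and FOXM1 complexes, and through CCAAT boxes bound by NF-Y.

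The promoter sequence shared by the members is shown first, because it was not used to choose them. RefSeq promoter windows of build GRCm38.p6, from 250 bases before to 50 bases after the start site, were found for 30 of the 34 members, in 32 windows. The CHR letters TTTGAA or TTCGAA stood on either strand in 26 of the 32 member windows (81.25%), against 19.2% of all 32851 windows. The box CCAAT, also on either strand, stood in 26 member windows (81.25%), against 37.4% of all windows. Matches of the 2 motifs can share 1 base. Both motifs stood in 23 member windows (71.9%), against 7.52% of all windows. At least 2 CCAAT boxes stood in 18 member windows (56.25%), against 11.7% of all windows. The windows of Anln, Kif2c and Ndc80 held the CHR letters and no CCAAT, those of Ccnb1, Cenpe and Nek2 held CCAAT and no CHR, and those of Birc5, Mad2l1 and Nuf2 held neither. Aurkb, Incenp, Kif20a and Tpx2 were not matched to a window. In the 150 bases before the start site alone, 10 member windows held the CHR letters, against 9.70% of all windows, and 26 held CCAAT, against 24.5% of all windows.

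The stretches below run from 70 bases before to 30 bases after the start site, 5′ to 3′ on the strand of the gene, with both motifs in capitals. They were picked to show where the motifs lie: the kinase Cdk1 and its partner Ccnb2, the APC/C activator Cdc20, the kinetochore gene Cenpf, the spindle motor Kif11, the topoisomerase Top2a, and the cytokinesis genes Prc1, Kif23 and Racgap1. The reverse complements of the motifs read TTCAAA and ATTGG.
Cdk1 (chr10:69352883-69352982, minus strand): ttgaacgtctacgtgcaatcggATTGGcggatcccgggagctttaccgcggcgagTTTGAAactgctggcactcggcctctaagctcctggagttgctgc
Ccnb2 (chr9:70421525-70421624, minus strand): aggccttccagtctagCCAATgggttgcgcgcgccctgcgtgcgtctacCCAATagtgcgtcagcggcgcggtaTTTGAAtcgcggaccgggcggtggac
Cdc20 (chr4:118437314-118437413, minus strand): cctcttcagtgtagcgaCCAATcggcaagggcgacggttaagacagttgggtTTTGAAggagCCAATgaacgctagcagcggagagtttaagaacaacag
Cenpf (chr1:189688057-189688156, minus strand): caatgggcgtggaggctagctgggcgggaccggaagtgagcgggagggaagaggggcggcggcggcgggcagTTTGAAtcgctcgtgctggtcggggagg
Kif11 (chr19:37376312-37376411, plus strand): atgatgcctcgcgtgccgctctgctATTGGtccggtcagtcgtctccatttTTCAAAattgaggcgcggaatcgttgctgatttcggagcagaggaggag
Top2a (chr11:99024160-99024259, minus strand): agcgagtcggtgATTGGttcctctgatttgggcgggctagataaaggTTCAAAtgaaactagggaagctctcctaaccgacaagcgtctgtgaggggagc
Prc1 (chr7:80294381-80294480, plus strand): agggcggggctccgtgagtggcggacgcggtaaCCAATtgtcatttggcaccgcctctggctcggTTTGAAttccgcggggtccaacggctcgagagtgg
Kif23 (chr9:61946770-61946869, minus strand): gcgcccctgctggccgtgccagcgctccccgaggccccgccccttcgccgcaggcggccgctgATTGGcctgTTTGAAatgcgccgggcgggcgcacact
Racgap1 (chr15:99651627-99651726, minus strand): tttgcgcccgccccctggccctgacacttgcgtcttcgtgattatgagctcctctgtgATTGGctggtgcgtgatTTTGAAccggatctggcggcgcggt
The Cenpf stretch holds the CHR letters alone because of where it was cut. The CCAAT boxes of Cenpf, at bases -132 to -128 and -71 to -67, lie before the stretch or across its edge. In the other stretches, which were chosen because they hold both motifs, a CCAAT box lies before the CHR letters in capitals, and Cdc20 has another box after them. This order holds only within the stretches: Cdk1 has a further CHR match at -71 to -66, cut by the edge, and Top2a has others further upstream.

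**Figure D1:**
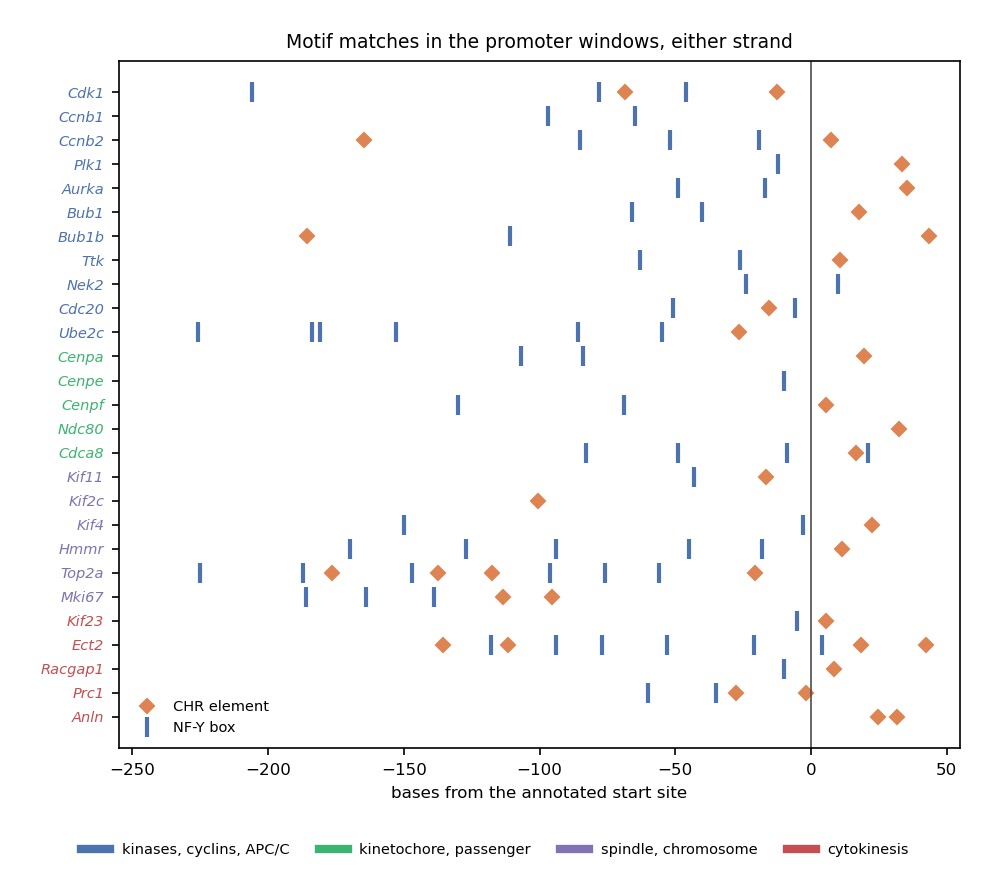
Midpoints of motif matches (diamonds, CHR element; bars, the CCAAT box bound by NF-Y) along the 300-base promoter windows of the 27 members with a match, by distance in bases from the annotated start site on the x axis. Most CHR matches lie close to the start site, on both sides of it, and most boxes lie before it; Prc1 and Ect2 have 2 windows each, with different start sites, so their matches are drawn once for each.

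Before the results, the libraries were checked. Totals ran from 57363229 to 65768024 counts in sgMyc and from 51875052 to 55900895 in WT of that set. Whole reads recovered from the other tables summed to 12335197 and 13016874 in sgNAT10 mRNA against 13469347 and 16133298 in WT mRNA. Footprint libraries were shallower, at 1542261 and 3192728 in sgNAT10 against 2799640 and 2849618 in WT. Nat10 mRNA had 3.59 and 3.95 FPKM (reads scaled to transcript length and library size) in sgNAT10, against 5.36 and 5.30 FPKM in WT, a log2 fold change of -0.41 ± 0.06 (SE; limma, adjusted p = 0.00266). Myc mRNA had 21.1, 20.9 and 34.1 FPKM in sgMyc, against 64.8, 61.6 and 70.8 FPKM in WT of that set (log2 fold change -1.37 ± 0.22; edgeR, adjusted p = 0.011). Myc was also lower in the sgNAT10 mRNA set, at 40.0 and 40.9 FPKM in sgNAT10 against 115 and 117 FPKM in WT (limma, adjusted p = 9.4e-06). The third sgMyc library stood apart: its reads differed beyond counting error (chi-square test, p under 0.001) from those of the other sgMyc libraries in 67.9% to 68.3% of genes, against 13.5% between sgMyc replicates 1 and 2 and 16.0% to 21.5% between WT libraries. The mRNA replicates of the sgNAT10 set differed so in 1.46% (sgNAT10) and 0.851% (WT) of genes, and their Ribo-seq replicates in 22.1% and 34.3%. All 8 fibroblast markers were listed in each set, their summed mRNA levels being 517 to 541 FPKM in sgNAT10 against 270 to 278 FPKM in WT, and 851 to 1204 FPKM in sgMyc against 1039 to 1063 FPKM in WT. Listed epithelial markers summed to at most 0.833 FPKM in every mRNA library, listed endothelial markers to at most 0.568 FPKM, and none of 5 T cell markers was listed in the sgNAT10 mRNA table. The 3 of 5 macrophage markers that were listed, without Adgre1 and Ptprc, summed to 12.2 to 13.7 FPKM in sgNAT10 against 5.49 to 6.0 FPKM in WT. Of these, Cd14 rose (log2 fold change 1.71; limma, adjusted p = 0.000133), while Cd68 (0.04) and Csf1r (-0.16) missed the threshold. The fibroblast markers did not move together in sgNAT10: Thy1, Pdgfra, Col1a2 and Vim rose, Col3a1 and Pdgfrb fell, and Col1a1 and Dcn were too low to test. In the sgMyc set Col3a1 had 229, 229 and 25.1 FPKM in sgMyc against 26.7, 28.0 and 21.5 FPKM in WT, with replicate 3 inside the WT range. The part of these differences in the results below was not tested.

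In WT mRNA of the sgNAT10 set, the highest members were Cdc20 (67.9 ± 0.01 FPKM), the ubiquitin-conjugating enzyme Ube2c (62.5 ± 2.10 FPKM) and the Polo kinase Plk1 (54.8 ± 0.23 FPKM; SD, n = 2). The lowest were the checkpoint kinase Ttk (5.28 ± 0.05 FPKM) and the kinetochore gene Nuf2 (6.50 ± 0.20 FPKM). Neighbours in this order often lay within their spread, as Incenp at 29.5 ± 0.68 FPKM and Cdk1 at 29.5 ± 0.96 FPKM did.

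The sgNAT10 cells were compared with WT first in mRNA. Of the 34 members, 13 rose and 3 fell in sgNAT10 cells (limma on log2(FPKM + 1), Benjamini-Hochberg adjusted p under 0.05 over 11735 genes). Over all genes tested, 33.7% rose and 29.6% fell, so the count of members that rose is near the background and the count that fell is under it, a difference that was not tested. In these bulk libraries, and in those of sgMyc, a change in the share of cells in mitosis and a change in RNA per cell cannot be told apart. The members' median log2 fold change was 0.09, against 0.01 over all genes. The groups differed in their counts: 5 of the 6 cytokinesis genes rose and none fell, 3 of the 7 spindle and chromosome genes rose and none fell, 3 of the 9 kinetochore and passenger genes rose and 1 fell, and 2 of the 12 kinase, cyclin and APC/C genes rose and 2 fell. Quantile normalization moved the median of all genes to -0.03 and gave 12 members higher and 8 lower, with 3464 genes higher and 3992 lower of all 11735. The libraries of the genotypes did not overlap for 21 members with higher values in sgNAT10 and 7 with lower values, against 43.3% and 39.0% of all genes.

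Among the cytokinesis genes, Prc1, which bundles the microtubules of the central spindle, had 25.6 and 24.1 FPKM in sgNAT10, against 14.8 and 14.5 FPKM in WT. Anln, which encodes the ring scaffold anillin, had 32.0 and 30.4 FPKM in sgNAT10, against 19.4 and 19.3 FPKM in WT. Both sgNAT10 libraries lay far above both WT libraries in each gene. The log2 fold changes were 0.72 ± 0.04 for Prc1 and 0.66 ± 0.04 for Anln (SE; limma, adjusted p = 0.000125 and 0.000122). The kinesin gene Kif20a had 36.9 and 35.2 FPKM in sgNAT10 against 26.3 and 25.9 FPKM in WT, and rose by 0.45 ± 0.04 on the log2 scale. Kif23, the motor of centralspindlin, had 12.8 and 12.3 FPKM in sgNAT10 against 8.99 and 8.92 FPKM in WT, and rose by 0.44 ± 0.04. Ect2, the exchange factor that activates RhoA at the cell equator, had 37.1 and 37.6 FPKM in sgNAT10 against 32.6 and 33.2 FPKM in WT, and rose by 0.18 ± 0.03. Racgap1, the partner of Kif23 in centralspindlin, had 26.0 and 25.7 FPKM in sgNAT10 against 24.9 and 23.2 FPKM in WT, a log2 fold change of 0.10 ± 0.04 that missed the threshold (limma, adjusted p = 0.0939). In all 6 genes the lower sgNAT10 library exceeded the higher WT library.

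Cdk1, Plk1, Aurka and Aurkb, the kinases that drive mitosis, all missed the threshold. Cdk1 had 31.3 and 30.1 FPKM in sgNAT10 against 30.1 and 28.8 FPKM in WT, and the genotypes overlapped (log2 fold change 0.06 ± 0.04; limma, adjusted p = 0.258). Plk1 had 57.7 and 58.3 FPKM in sgNAT10 against 54.9 and 54.6 FPKM in WT, at the edge of the threshold (0.08 ± 0.03; adjusted p = 0.0503). Aurkb, the kinase of the passenger complex, had 22.4 and 23.8 FPKM in sgNAT10 against 23.7 and 24.7 FPKM in WT, which overlapped. Aurka, the spindle pole kinase, had a log2 fold change of 0.11 ± 0.04 (adjusted p = 0.0563). The cyclin genes went apart: Ccnb1 rose, with 39.2 and 38.1 FPKM in sgNAT10 against 32.5 and 31.8 FPKM in WT (0.26 ± 0.03; adjusted p = 0.0018), and Ccnb2 fell, with 40.4 and 38.5 FPKM in sgNAT10 against 44.2 and 43.1 FPKM in WT (-0.14 ± 0.04; adjusted p = 0.0218). Ube2c, the conjugating enzyme of the APC/C, had 82.6 and 85.5 FPKM in sgNAT10 against 64.0 and 61.0 FPKM in WT and rose by 0.42 ± 0.04. The checkpoint kinase gene Bub1 had 23.0 and 23.3 FPKM in sgNAT10 against 25.5 and 26.1 FPKM in WT and fell by 0.15 (SE 0.03; adjusted p = 0.0109). Bub1b, Ttk, the centrosomal kinase gene Nek2 and Cdc20 had log2 fold changes between -0.10 and 0.12 that missed the threshold. Without WT replicate 2, Cdca8 alone was called lower, with Bub1 at an adjusted p of 0.0679 and Ccnb2 at 0.0569. Ccnb2 also lost its call without sgNAT10 replicate 2 (adjusted p = 0.0685) without WT replicate 1 (adjusted p = 0.106) and without the trend in the variance (adjusted p = 0.0546).

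In the kinetochore and passenger group, Mad2l1, which encodes the checkpoint protein that inhibits Cdc20, had 12.2 and 12.4 FPKM in sgNAT10 against 8.28 and 8.39 FPKM in WT. It rose by 0.51 ± 0.04 on the log2 scale (limma, adjusted p = 0.000289). Nuf2, a subunit of the NDC80 complex that grips microtubules, had 8.71 and 8.53 FPKM in sgNAT10 against 6.64 and 6.35 FPKM in WT and rose by 0.36 ± 0.05. Its partner Ndc80 had 10.9 and 9.40 FPKM in sgNAT10 against 9.41 and 9.05 FPKM in WT, which overlapped. The passenger genes also went apart. Birc5, which encodes survivin, rose, with 28.7 and 27.4 FPKM in sgNAT10 against 23.6 and 25.1 FPKM in WT (0.20 ± 0.05; adjusted p = 0.0151). Cdca8, which encodes borealin, fell, with 11.3 and 11.1 FPKM in sgNAT10 against 14.2 and 13.9 FPKM in WT (-0.30 ± 0.04; adjusted p = 0.00158). Birc5 lost its call without sgNAT10 replicate 1 (adjusted p = 0.0561), without WT replicate 1 (adjusted p = 0.0704) and under quantile normalization (adjusted p = 0.123). The scaffold gene Incenp and the centromere genes Cenpa, Cenpe and Cenpf had log2 fold changes between -0.10 and 0.03 that missed the threshold.

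Among the spindle and chromosome genes, the chromokinesin gene Kif4 had 14.5 and 13.6 FPKM in sgNAT10 against 10.4 and 9.71 FPKM in WT and rose by 0.44 ± 0.05 (limma, adjusted p = 0.00139). Kif11, the motor that separates the spindle poles, had 18.9 and 19.3 FPKM in sgNAT10 against 14.0 and 13.8 FPKM in WT and rose by 0.43 ± 0.04. The spindle assembly factor gene Tpx2 had 47.9 and 45.6 FPKM in sgNAT10 against 38.7 and 40.8 FPKM in WT and rose by 0.23 ± 0.04. The genotypes did not overlap in any of the 3. Top2a, the topoisomerase that untangles chromosomes, had 47.0 and 47.0 FPKM in sgNAT10 against 47.9 and 48.8 FPKM in WT (-0.04 ± 0.03; adjusted p = 0.273). Mki67, the proliferation marker that coats mitotic chromosomes, had 55.0 and 50.9 FPKM in sgNAT10 against 50.6 and 51.5 FPKM in WT, which overlapped. The depolymerase gene Kif2c (-0.04) and the spindle gene Hmmr (0.08) also missed the threshold.

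**Figure D2:**
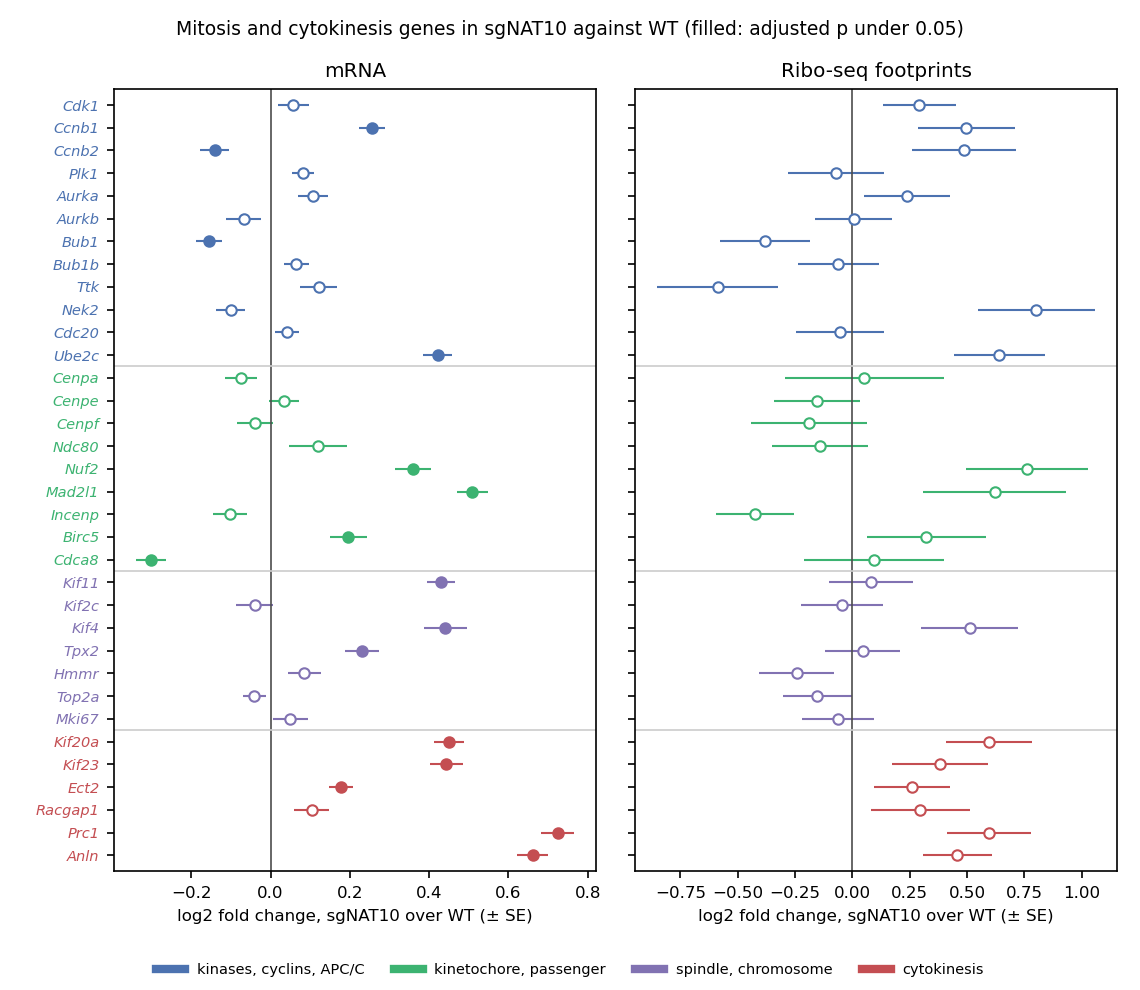
Log2 fold change of sgNAT10 over WT with its standard error (x axis) for each of the 34 members (rows, coloured by group), in mRNA on the left and Ribo-seq footprints on the right (n = 2 libraries per genotype); filled points had an adjusted p under 0.05. In mRNA 5 of the 6 cytokinesis genes are filled and lie right of 0, and in footprints no point is filled, with wider error bars.

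The authors' deposited table, whose test is not named, called 13 members higher and 2 lower in mRNA at the same threshold, against 22.6% of its 17379 genes higher and 21.7% lower. The members it called higher are the 13 named above, and those it called lower are Bub1 and Cdca8.

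Ribosome footprints were compared next. None of the 34 members passed the test in Ribo-seq (limma, adjusted p under 0.05), against 1.81% of 9707 genes higher and 1.28% lower. At an unadjusted p under 0.05, 6 members had higher and 1 had lower footprints in sgNAT10, against 10.5% and 10.2% of all genes. On the recovered reads, edgeR's quasi-likelihood test called 2 members higher, Prc1 and Anln (adjusted p = 0.0294 and 0.0298), and none lower, against 3.89% of genes higher and 3.78% lower. The authors' deposited table called 6 members higher, Nuf2, Nek2, Ube2c, Prc1, Anln and Kif20a, and 1 lower, Incenp, against 7.45% of its 10974 genes higher and 7.65% lower. Footprints of 14 members were higher and of 7 lower with no overlap of the genotypes, against 25.6% of all genes in each direction.

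The 6 cytokinesis genes all had higher footprints without overlap. Prc1 had 42.5 and 45.4 FPKM of footprints in sgNAT10 against 27.8 and 29.7 FPKM in WT (0.59 ± 0.18 on the log2 scale; limma, adjusted p = 0.147). Anln had 103 and 99.6 FPKM in sgNAT10 against 69.8 and 77.3 FPKM in WT (0.46 ± 0.15; adjusted p = 0.164). Kif20a had 117 and 128 FPKM in sgNAT10 against 69.6 and 93.5 FPKM in WT (0.59 ± 0.19; adjusted p = 0.153). The footprint log2 fold changes of Kif23, Racgap1 and Ect2 were 0.38, 0.30 and 0.26. Both assays thus place the sgNAT10 libraries above the WT libraries in each cytokinesis gene, although the footprint differences did not pass the adjusted test.

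**Figure D3:**
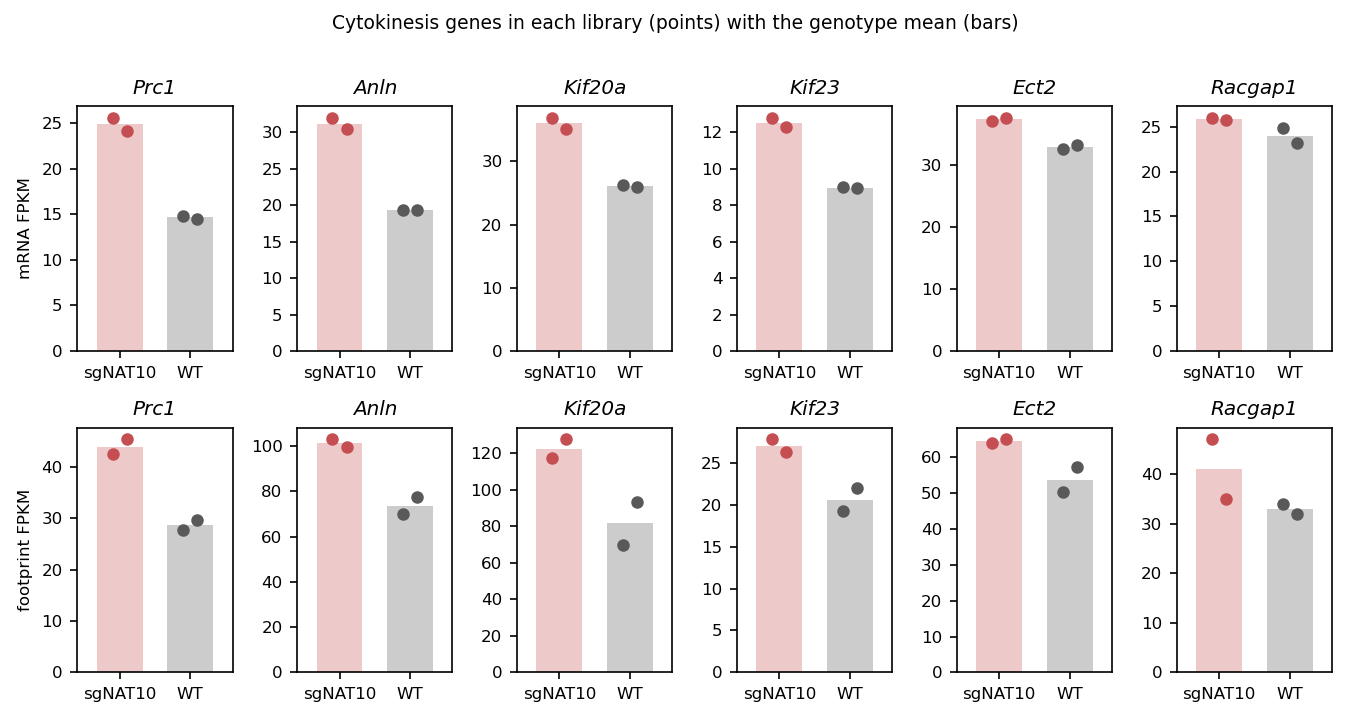
FPKM of the 6 cytokinesis genes in each library (points) and the mean of the 2 libraries of a genotype (bars), sgNAT10 left and WT right, for mRNA (top row) and Ribo-seq footprints (bottom row). Both sgNAT10 points lie above both WT points in all 12 panels; for Racgap1 the lowest sgNAT10 footprint value was 35.0 and the highest WT value 33.9 FPKM.

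Footprints of the kinases and cyclins spread widely. Cdk1 had 165 and 139 FPKM in sgNAT10 against 133 and 115 FPKM in WT (0.29 ± 0.16; limma, adjusted p = 0.372). Ccnb1 had 37.4 and 42.6 FPKM in sgNAT10 against 24.8 and 31.5 FPKM in WT (0.50 ± 0.21; adjusted p = 0.262). Ube2c, the member of its group with the lowest p, had 166 and 146 FPKM in sgNAT10 against 118 and 84.2 FPKM in WT (0.64 ± 0.20; adjusted p = 0.150). Plk1 had 85.5 and 68.3 FPKM in sgNAT10 against 69.7 and 92.6 FPKM in WT, and Aurkb 64.6 and 75.5 FPKM in sgNAT10 against 66.7 and 72.5 FPKM in WT; both genes overlapped. The mRNA of Ccnb2 fell while its footprints had the higher values in sgNAT10, at 87.8 and 124 FPKM against 83.7 and 65.7 FPKM in WT (adjusted p = 0.296). Nek2, whose mRNA missed the threshold, had footprints of 26.4 and 36.2 FPKM in sgNAT10 against 15.4 and 19.4 FPKM in WT (0.80 ± 0.26; adjusted p = 0.157).

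Of the kinetochore genes, Nuf2 had the lowest p, with footprints of 20.0 and 20.4 FPKM in sgNAT10 against 13.7 and 9.66 FPKM in WT (0.76 ± 0.27; limma, adjusted p = 0.185). Incenp had the largest negative value of that group, with 79.8 and 81.4 FPKM in sgNAT10 against 122 and 96.5 FPKM in WT (-0.43 ± 0.17; adjusted p = 0.237). Kif4 led the spindle genes, with 30.3 and 36.6 FPKM in sgNAT10 against 24.0 and 22.1 FPKM in WT (0.51 ± 0.21; adjusted p = 0.244). Top2a had 114 and 99.0 FPKM in sgNAT10 against 122 and 115 FPKM in WT, and Mki67 70.5 and 74.5 FPKM in sgNAT10 against 79.9 and 71.8 FPKM in WT. Of the 13 members that rose in mRNA, 10 also had higher footprints without overlap, against 51.7% of all 3274 genes that rose in mRNA and were tested in Ribo-seq; these 10 were part of the 14 members with such footprints. Of the 3 members that fell, only Bub1 had lower footprints without overlap, against 54.0% of the 2899 genes that fell, and Bub1 was 1 of the 7 members with such footprints.

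Translational efficiency, the change in footprints beyond the change in mRNA, was tested as the interaction of genotype and assay. None of the 34 members passed (limma with a weight per assay, adjusted p under 0.05), against 0 of 9200 genes higher and 0.0326% lower. At an unadjusted p under 0.05, 2 members had higher and 1 had lower values, against 4.09% and 4.01% of all genes, so that the members' count is near the background. These were Nek2 (0.90 ± 0.26 on the log2 scale, adjusted p = 0.397), Ccnb2 (0.63 ± 0.25, adjusted p = 0.558) and Ttk (-0.71 ± 0.28, adjusted p = 0.558). Values of the 6 cytokinesis genes lay between -0.20 and 0.19, those of the 9 kinetochore and passenger genes between -0.32 and 0.40, and those of the 7 spindle and chromosome genes between -0.35 and 0.07. Cdk1 had a value of 0.23 ± 0.22, Ccnb1 0.24 ± 0.22, Plk1 -0.15 ± 0.20, Aurkb 0.07 ± 0.24, Top2a -0.11 ± 0.17 and Mki67 -0.11 ± 0.24. The standard errors of the members ran from 0.17 to 0.39 on the log2 scale.

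The members differed widely in how many footprints they carried per mRNA. The ratio of mean footprint FPKM to mean mRNA FPKM had a median of 2.19 over the members in sgNAT10 and 2.02 in WT, against 1.14 and 1.15 over 9195 genes. The tables were normalized separately, so the ratio places a gene only among the other genes. In WT 31 of the 34 members lay above the median of all genes. Cdk1 had the highest ratio, 4.95 in sgNAT10 and 4.20 in WT, and Ndc80, Hmmr and Kif2c followed in WT with 3.93, 3.91 and 3.81. The lowest were Cenpa, the histone H3 variant of the centromere, with 0.513 in sgNAT10 and 0.452 in WT, then Mad2l1 with 0.907 and 0.837, and Ccnb1 with 1.04 and 0.875. The cyclin genes stood apart here as well, Ccnb2 having 2.69 in sgNAT10 and 1.71 in WT.

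The sgMyc set was compared with its own WT libraries. All but 1 of the members had a negative log2 fold change, while 47.0% of all genes had a positive one. Yet only 3 members fell and none rose (edgeR quasi-likelihood test, adjusted p under 0.05), against 8.86% of 16794 genes lower and 7.11% higher. At an unadjusted p under 0.05, 9 members were lower and none higher, against 16.4% of genes lower and 14.6% higher. DESeq2 and limma each called 4 members lower, adding Bub1, and none higher. Over all genes DESeq2 called 8.35% lower and 10.3% higher, and limma 9.09% lower and 6.32% higher. The members' median log2 fold change was -0.24, against -0.03 over all genes. Top2a had 52.1, 50.4 and 57.9 FPKM in sgMyc against 70.2, 73.3 and 70.0 FPKM in WT (-0.41 ± 0.09; adjusted p = 0.0287). Ndc80 had 5.95, 5.70 and 6.61 FPKM in sgMyc against 8.35, 8.21 and 7.45 FPKM in WT (-0.39 ± 0.10; adjusted p = 0.0418). Cenpf, a kinetochore corona gene, had 6.58, 6.49 and 7.39 FPKM in sgMyc against 9.03, 9.16 and 8.55 FPKM in WT (-0.38 ± 0.09; adjusted p = 0.0329). In these 3 genes every sgMyc library lay below every WT library, which held for 10 members in all, against 21.7% of genes; no member was higher without overlap, against 16.2% of genes.

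The sgMyc libraries were then taken one by one, because the third stood apart. In sgMyc replicate 1, 33 of the 34 members lay below every WT library and none above, against 43.8% of genes below and 37.5% above. In sgMyc replicate 2, all 34 lay below and none above, against 44.0% below and 37.8% above. Replicate 3 had 10 members below every WT library, 19 above and 5 between, against 42.3% of genes below and 35.7% above. The median member stood at 73.9% of the WT mean in sgMyc replicate 1, 73.0% in replicate 2 and 105% in replicate 3. For single members, the level in replicate 3 was 1.13 to 1.84 times the mean of replicates 1 and 2, with a median of 1.40, whereas replicate 1 was 0.942 to 1.15 times replicate 2. Without sgMyc replicate 3, 33 of the 34 members fell, against 26.9% of genes lower and 26.6% higher, and the members' median log2 fold change was -0.42. The exception was Kif4, at -0.01 ± 0.04 (edgeR, adjusted p = 0.862). Leaving out sgMyc replicate 1, sgMyc replicate 2, WT replicate 1, WT replicate 2 or WT replicate 3 instead gave 0 members lower and 0 higher by the same test. Calls were few over all genes as well in these refits, with 493 to 802 genes lower and 187 to 423 higher of 17251 to 17517 tested. In the same libraries Myc itself was highest in sgMyc replicate 3, and Nat10 had 3.52, 3.31 and 6.27 FPKM in sgMyc against 5.01, 4.86 and 5.13 FPKM in WT. Macrophage markers, again without Adgre1 and Ptprc, summed to 15.9 to 29.3 FPKM in sgMyc against 10.9 to 12.3 FPKM in WT; what sets replicate 3 apart was not tested.

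**Figure D4:**
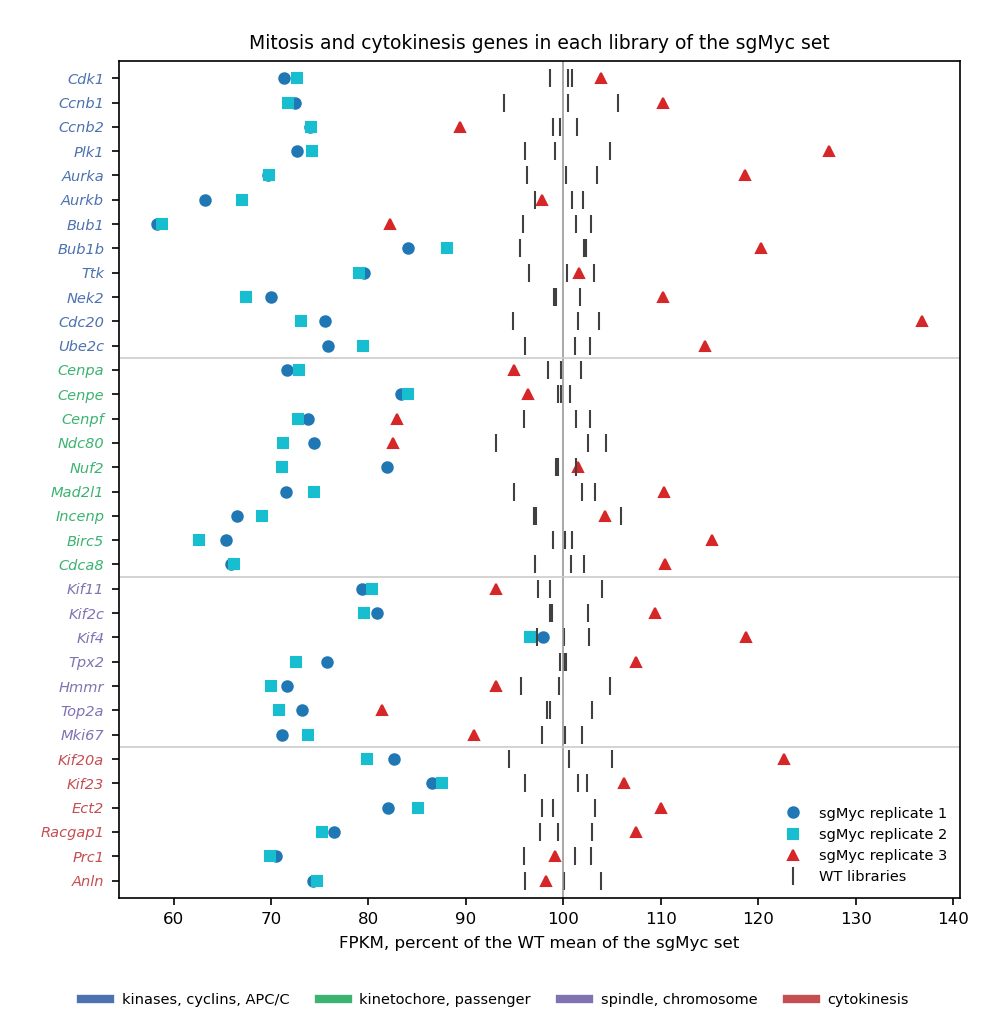
FPKM of each member (rows, coloured by group) in every library of the sgMyc set, as a percent of the WT mean (x axis); circles, squares and triangles are sgMyc replicates 1, 2 and 3, and ticks are the 3 WT libraries. Circles and squares lie together left of the WT ticks in nearly every row, at a median of 73.9% and 73.0%, while triangles lie from 81.4% to 137%.

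The groups differed in where replicate 3 fell. Among the 12 kinase, cyclin and APC/C genes, 8 lay above every WT library in replicate 3 and 2 below, with a median of 110% of the WT mean. Cdk1 had 27.2, 27.7 and 39.5 FPKM in sgMyc against 37.6, 38.3 and 38.4 FPKM in WT, so that replicates 1 and 2 were the lowest libraries and replicate 3 the highest. Plk1 had 41.9, 42.8 and 73.5 FPKM in sgMyc against 60.5, 57.2 and 55.5 FPKM in WT, with the same order. Ccnb1 had 31.2, 30.9 and 47.5 FPKM in sgMyc against 43.3, 45.5 and 40.4 FPKM in WT. Cdc20 showed the widest gap, at 75.6%, 73.1% and 137% of the WT mean. Aurkb had 25.6, 27.2 and 39.7 FPKM in sgMyc against 41.4, 40.9 and 39.4 FPKM in WT, with replicate 3 inside the WT range. Bub1, the member of its group with the lowest p, had 26.5, 26.7 and 37.3 FPKM in sgMyc against 43.5, 45.9 and 46.7 FPKM in WT, all below WT (-0.59 ± 0.16; edgeR, adjusted p = 0.0536).

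The kinetochore and passenger genes split in replicate 3. Cenpa, Cenpe, Cenpf and Ndc80 stayed below every WT library, Nuf2, Mad2l1, Birc5 and Cdca8 lay above, and Incenp lay between. Birc5 had 65.4%, 62.6% and 115% of the WT mean, and Cenpf 73.8%, 72.8% and 82.9%. Among the 7 spindle and chromosome genes, Kif11, Hmmr, Top2a and Mki67 stayed below every WT library in replicate 3, and Kif2c, Kif4 and Tpx2 lay above. Mki67 had 35.6, 36.9 and 45.5 FPKM in sgMyc against 50.1, 51.0 and 48.9 FPKM in WT (-0.35 ± 0.12; edgeR, adjusted p = 0.105). Kif4 was the member least below WT in replicates 1 and 2, at 97.9% and 96.6% of the WT mean.

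No cytokinesis gene stayed below WT in replicate 3: Kif20a, Kif23, Ect2 and Racgap1 lay above every WT library, and Prc1 and Anln lay between. Prc1 had 19.2, 19.0 and 27.0 FPKM in sgMyc against 28.0, 27.6 and 26.1 FPKM in WT (-0.32 ± 0.16; edgeR, adjusted p = 0.237). Anln, with the lowest p of its group, had 29.5, 29.6 and 39.0 FPKM in sgMyc against 39.7, 41.2 and 38.1 FPKM in WT (-0.28 ± 0.14; adjusted p = 0.233). In both genes replicates 1 and 2 were the lowest of the 6 libraries. Without replicate 3, the log2 fold changes were -0.48 ± 0.04 for Prc1 and -0.39 ± 0.04 for Anln, and from -0.37 for Racgap1 to -0.17 for Kif23 in the other cytokinesis genes.

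The effects of the edits were set against each other as the sgNAT10 effect minus the sgMyc effect, each taken within its own set. The difference was positive in all 34 members (33 under median scaling or without sgMyc replicate 1 or 2), against 55.6% of 10265 genes. It passed the test in 15 with 0 negative (limma with a weight per set, adjusted p under 0.05), against 18.7% of genes positive and 9.73% negative. The 15 comprised 4 of the 6 cytokinesis genes, 5 of the 7 spindle and chromosome genes, 4 of the 9 kinetochore and passenger genes and 2 of the 12 kinase, cyclin and APC/C genes. Prc1 differed by 1.05 ± 0.15 on the log2 scale (adjusted p = 0.00106), with limma effects of 0.72 in sgNAT10 and -0.33 in sgMyc. Anln differed by 0.94 ± 0.13 (adjusted p = 0.000844), with effects of 0.66 in sgNAT10 and -0.28 in sgMyc. Mad2l1 differed by 0.74 ± 0.16 and Kif11 by 0.67 ± 0.09 (adjusted p = 0.00835 and 0.000746). Top2a differed by 0.37 ± 0.08 and Mki67 by 0.40 ± 0.12 (adjusted p = 0.0105 and 0.0359), with effects in sgNAT10 of -0.04 and 0.05. Cdk1 (0.35 ± 0.15, adjusted p = 0.125), Ccnb1 (0.51 ± 0.17, adjusted p = 0.0542), Plk1 (0.26 ± 0.21, adjusted p = 0.408) and Aurkb (0.34 ± 0.17, adjusted p = 0.166) missed the threshold. Cdca8 had the smallest difference, 0.02 ± 0.19. Without sgMyc replicate 3, all 34 members passed, against 36.5% of genes positive and 23.4% negative. The count fell to 7 without sgMyc replicate 1, sgMyc replicate 2, WT replicate 1 or WT replicate 3 of the sgMyc set, and to 6 without WT replicate 2 of that set. Positive calls over all genes fell too, from 1916 of 10265 genes to 1429, 1391, 1193, 1314 and 1171 in these refits, taken in the same order. Prc1, Anln, Mad2l1, Kif11, Nuf2 and Kif23 kept their call in each of the 16 alternatives tried. The WT levels of the cytokinesis genes were not alike in the sets. Mean WT mRNA of the sgNAT10 set was 14.7 FPKM for Prc1, 19.4 FPKM for Anln and 26.1 FPKM for Kif20a. In WT of the sgMyc set these genes had 27.2, 39.7 and 43.2 FPKM. In the same order of sets, Kif23 had 8.96 against 16.4 FPKM, Racgap1 24.0 against 32.1 FPKM and Ect2 32.9 against 32.0 FPKM. The part of these WT levels in the differences was not tested.

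**Figure D5:**
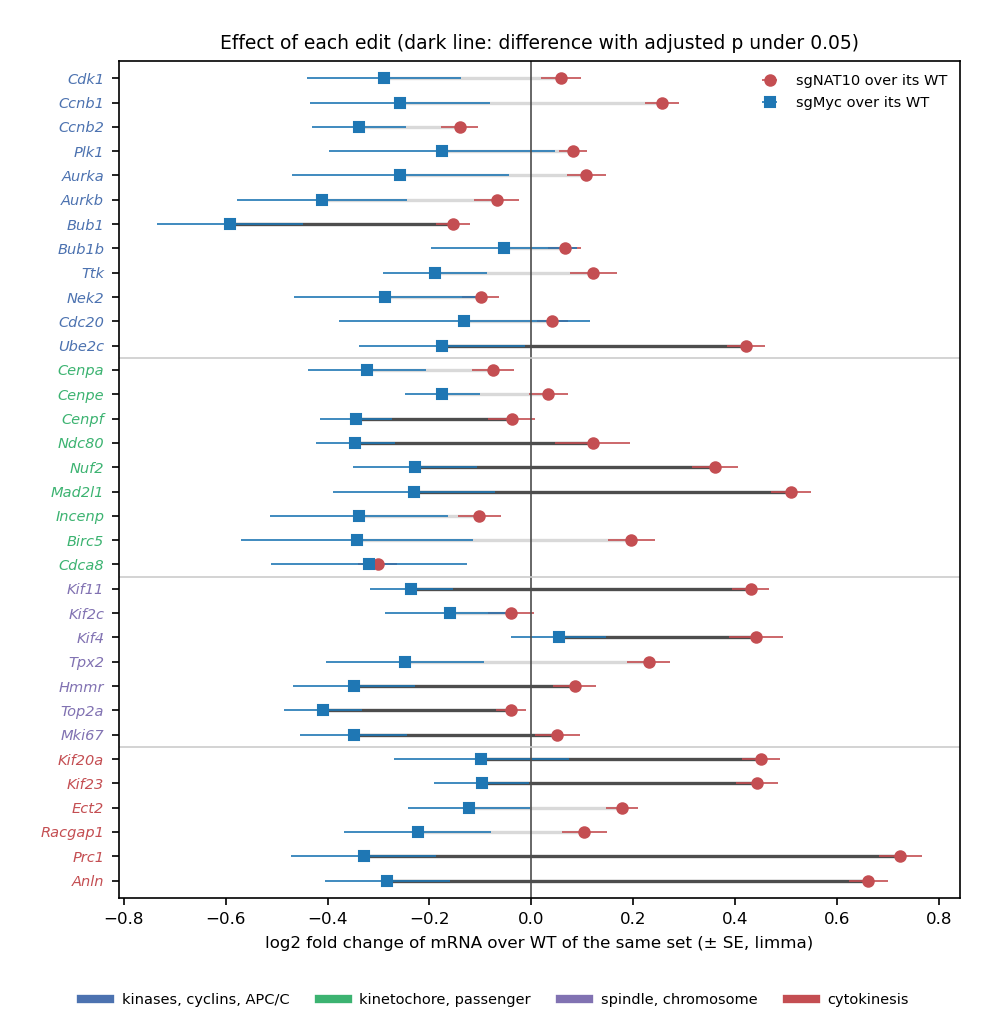
Log2 fold change of mRNA over the WT libraries of the same set, with its standard error (x axis, limma), for each member (rows) in sgNAT10 (circles, n = 2 libraries per genotype) and sgMyc (squares, n = 3); dark lines join effects whose difference had an adjusted p under 0.05. The circle lies right of the square in all 34 rows, with the widest gap in Prc1, 1.05.

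Other genes of mitosis and of its control were read from a list of 134 genes that holds none of the members. In sgNAT10 mRNA, 65 of the 134 rose and 22 fell (limma, adjusted p under 0.05), against 33.7% and 29.6% of all genes; without WT replicate 1, 54 rose and 11 fell. The largest rises were those of Fbxo5, the APC/C inhibitor EMI1, with 31.5 and 31.7 FPKM in sgNAT10 against 13.3 and 13.4 FPKM in WT (1.18 ± 0.03), and Foxm1, the activator of late cell cycle genes, with 41.6 and 42.6 FPKM in sgNAT10 against 22.9 and 22.3 FPKM in WT (0.87 ± 0.03). The largest falls were those of Haus6, an augmin subunit gene (-0.50 ± 0.04), and Mybl2, which encodes B-MYB, with 15.5 and 17.1 FPKM in sgNAT10 against 23.2 and 22.5 FPKM in WT (-0.46 ± 0.05). Of 28 other kinetochore genes 18 rose and 1 fell, of 17 other cytokinesis genes 9 rose and 3 fell, and of 19 other APC/C and separase genes 6 rose and 4 fell. In Ribo-seq and in translational efficiency none of the 134 passed by limma, and edgeR on recovered footprint reads called 4 higher and 1 lower. In sgMyc 1 rose, the NF-Y subunit gene Nfyc (0.43 ± 0.10; edgeR, adjusted p = 0.0362), and 11 fell, led by the condensin gene Smc2, with 15.8, 15.4 and 18.4 FPKM in sgMyc against 31.3, 33.5 and 32.4 FPKM in WT (-0.97 ± 0.10), and the cohesin gene Rad21 (-0.55 ± 0.07). Over all genes 7.11% rose and 8.86% fell, so these counts are not above the background. Without sgMyc replicate 3, 16 rose and 80 fell, against 26.6% and 26.9% of all genes. Without any other single library of that set, 2 to 4 fell and none rose, Nfyc included, while 493 to 802 of all genes fell and 187 to 423 rose. Nfyc rose in sgNAT10 mRNA too (0.82 ± 0.04). The sgNAT10 effect minus the sgMyc effect passed in 47 of 133 genes as positive, led by Foxm1 (1.01 ± 0.16) and Fbxo5 (0.97 ± 0.10), and in 4 as negative, led by the securin gene Pttg1 (-1.05 ± 0.30) and the cohesin gene Stag2 (-0.48 ± 0.15); over all genes 18.7% were positive and 9.73% negative. Without sgMyc replicate 3 these counts were 90 and 7, against 36.5% and 23.4% of all genes. Without any other single library of the sgMyc set, 26 to 30 were positive and 0 to 1 negative. Over all genes, 1171 to 1429 were then positive and 539 to 691 negative, against 1916 and 999 with every library.

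Acetylated RNA was read from the authors' deposited table of acRIP peaks, from 1 precipitate and 1 input library per genotype, so no test of a difference was possible. Peaks lay in 4 of the 34 members (11.8%), against 8.07% of the 11735 genes tested in mRNA. Coordinates are those of mm10, and all 4 peaks lay inside their RefSeq gene. By position a further peak lay inside Nek2, but the authors' deposited table names it for Gm38037. Nek2 had a peak in its 5′ untranslated region (chr1:191821534-191821713, plus strand) with a deposited fold enrichment of 1.5. Tpx2 (chr2:152875670-152876684, plus strand), Kif2c (chr4:117173622-117174428, minus strand) and Mki67 (chr7:135704667-135704787, minus strand) had peaks in coding sequence, with fold enrichments of 1.42, 1.83 and 1.34, against a median of 1.77 over all 1358 peaks in the authors' deposited table. The log2 difference between genotypes in the authors' deposited table was 1.98 for Nek2, 2.21 for Tpx2, 1.76 for Kif2c and 0.788 for Mki67. It was positive for 56.8% of all peaks, with a median of 0.12, and its direction is not stated in the file. The deposited log10 false discovery rate of the difference was -12.6 for Nek2, -12.8 for Tpx2, -2.38 for Mki67 and only -1.04 for Kif2c, with no replicates behind these scores. Of these 4 genes, Tpx2 rose in sgNAT10 mRNA and the others missed the threshold, and none passed in footprints.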

How the data were processed

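The 34 members, their groups and the list of 134 other genes were chosen with earlier results of these data known. Per the submitters' processing notes, FastQC, Trim Galore, Bowtie2 and featureCounts were used with build mm10; versions are not given in the sources used here. The sgMyc table holds counts and FPKM as deposited. For sgNAT10, mRNA and Ribo-seq values are FPKM with the authors' log2 fold changes and p-values, per the file headers. The acRIP table holds, per the file headers, a fold ratio of enrichment, a log2 difference and log10 scores as deposited.

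From these, limma 3.58.1 in R 4.3.3 (lmFit, eBayes with trend) was run on log2(FPKM + 1) for genes averaging 1 FPKM or more, so fold changes of low genes are understated. The sgMyc counts were tested with edgeR 4.0.16 (filterByExpr, TMM, quasi-likelihood), and DESeq2 1.42.0 was an alternative. Translational efficiency and the difference between the edits were limma interactions with a weight per assay or set (arrayWeights). The Benjamini-Hochberg adjustment covered all genes tested. All 34 members passed each filter on low values. Whole reads were recovered from FPKM ratios in 99.9% of mRNA and 99.99% of Ribo-seq genes, to within 1e-09, and tested with edgeR as an alternative. The fits were also run on simulated data, with planted changes larger than those of any member and no outlying library. Those runs cannot show how well changes of the members' size are found. Promoter sequences are those of RefSeq on GRCm38.p6. Per-library values were given for the members with the largest change each way past the test in each group (lowest p where none passed) and for Cdk1, Ccnb1, Plk1, Aurkb, Top2a, Mki67, Prc1 and Anln; others named with values, such as Ccnb2, Nek2, Incenp, Cdc20, the remaining cytokinesis genes and the markers Cd14 and Col3a1, were chosen after their values were seen. Same-numbered samples did not deviate together, with correlations between -0.03 and 0.03, so the numbers were not used to pair samples. Alternatives covered pseudocounts, filters, scalings, other tools, a replicate block and leaving out each library; taking the sgMyc libraries one by one on TMM-scaled counts was added after the data were seen. Where a library was left out, a lone sample was assumed to vary like the other groups.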

Additional observations from a re-analysis of the deposited data

Results flagged for a closer look

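In 15 members the sgNAT10 effect and the sgMyc effect on mRNA differed by a test of the difference itself (limma interaction on log2(FPKM + 1), adjusted p under 0.05 over all genes), and in each the sgNAT10 effect was the higher. The differences were, on the log2 scale, 1.05 for Prc1, 0.94 for Anln, 0.55 for Kif20a and 0.54 for Kif23 among the cytokinesis genes. They were 0.67 for Kif11, 0.43 for Hmmr, 0.40 for Mki67, 0.39 for Kif4 and 0.37 for Top2a among the spindle and chromosome genes. They were 0.74 for Mad2l1, 0.59 for Nuf2, 0.47 for Ndc80 and 0.31 for Cenpf among the kinetochore genes, and 0.60 for Ube2c and 0.44 for Bub1 among the kinase, cyclin and APC/C genes. The sets were prepared with separate WT libraries, so an effect of the set on the response to an edit cannot be told apart from the edit. Not all of these calls were equally firm over the 16 alternatives tried: Bub1 lost its call in 13, Kif20a in 12, Hmmr and Mki67 in 10 each, Ube2c, Cenpf and Kif4 in 9 each, Ndc80 in 6 and Top2a in 2, and the other 6 lost it in none.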

How the results depend on the processing

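In sgNAT10 mRNA, quantile normalization gave 12 members higher and 8 lower, and edgeR on recovered reads 15 and 5, against 13 and 3. Over all genes, quantile normalization gave 3464 higher and 3992 lower of 11735, against 3960 and 3471 without it. EdgeR on recovered reads gave 4614 higher and 4653 lower of 13862 genes. Quantile normalization turned the log2 values of Cdk1 (-0.016), Plk1 (-0.025) and Mki67 (-0.046), none of them called. EdgeR on recovered footprint reads gave 2 members higher, against 0. In sgMyc, no filter gave 1 member lower and the replicate block 0, against 3, and leaving out 1 library gave 0 to 33. Over all genes, 1060 of 28738 were lower with no filter and 674 of 16794 with the replicate block, against 1488 of 16794. Without 1 library, 493 to 4710 genes were lower. The difference between the edits was positive and past the test in 8 members with no weights and in 7 with the replicate block, against 15, and in 6 to 34 without 1 library of the sgMyc set. Over all genes, 1457 were positive with no weights and 1424 with the replicate block, against 1916. The count of members was also lower than 15 without any 1 library of the sgNAT10 set, which left 1 sample in a group. The members' median difference was then 0.36 to 0.38, against 0.37. The replicate block changed no other count of members by over 1.5 times. CHR letters stood in 10 member windows and both motifs in 9 within 150 bases before the start, against 26 and 23. Leaving out 1 library also turned values that were not called: Mki67 in sgNAT10 mRNA ranged from -0.0036 to 0.10, in Ribo-seq Plk1 from -0.27 to 0.13, Aurkb from -0.11 to 0.12 and Mki67 from -0.14 to 0.012, Plk1 in sgMyc from -0.41 to 0.045, and in translational efficiency Plk1 from -0.36 to 0.050 and Aurkb from -0.039 to 0.18. On TMM-scaled counts, sgMyc replicate 3 had 21 members above every WT library, 10 below and 3 between. The cause of these shifts was not tested, except that fewer samples or a shorter window is part of the setting. Ribo-seq replicates differed beyond counting error, so the footprint errors are not those of depth alone.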
